A study of Mus musculus with 25 samples.

Results

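The sinoatrial node (SAN), the pacemaker region of the heart, was compared between embryonic day 14.5 (E14.5) and postnatal day 4 (P4) in mouse. The 6 SAN libraries of these stages, 3 at each, were chosen by their labels from the 25 RNA-seq libraries of the series, and all 20870 genes of the deposited table were used. The mice of all 6 carried an Hcn4-GFP reporter on a mixed background, with no other allele and no treatment in the labels. SAN tissue had been outlined by eye on frozen sections and collected by laser capture, the total RNA was amplified before library preparation, and the sections were stained for Hcn4 afterwards. Right atrium (RA) from the same reporter line and stages (3 libraries at each) and SAN at postnatal day 14 (P14, 3 libraries) served for comparison. The labels give no sex and no number of animals per library, and do not say whether animals were pooled, so the p-values below measure the spread between these libraries. In bulk tissue of this kind, fewer cells of a type and less RNA per cell cannot be told apart.

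Pacemaker cells depolarise by themselves, through the current carried by HCN channels, T-type and L-type calcium channels, and calcium cycling through the sarcoplasmic reticulum. Transcription factors such as Tbx3, Shox2, Isl1 and Tbx18 set up the node and keep the program of working atrial muscle low in it. Around birth heart muscle leaves the low-oxygen fetal circulation, myocytes slow their division, fuel use moves from glucose towards fatty acids, and the connective tissue around them grows.

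Levels are given in CPM units, which is the deposited signal divided by 1 constant (24.3374) for all libraries, chosen so that the mean library total has the scale of the usual CPM. The 6 libraries held 10932330 to 17997497 recovered reads and 17069 to 18679 detected genes each, and 3 reads, the limit that a count of 0 allows, correspond to at most 0.301 CPM. Hcn4 was at 1245, 1351 and 1143 CPM in the E14.5 SAN libraries and 3748, 1849.7 and 2144 CPM at P4, against 12.9 to 31.1 CPM in the 6 RA libraries of E14.5 and P4, so the captured tissue carried its defining marker. Replicates correlated at 0.943 to 0.958 within E14.5 and 0.911 to 0.928 within P4, and libraries of the 2 stages at 0.893 to 0.912 (Pearson's r across genes, which are not independent replicates). SAN E14.5 replicate 1 stood apart in a few genes. It held 829 CPM of Myl2, the ventricular myosin light chain, against 1.60 and 14.14 CPM in the other E14.5 libraries, and nearly none of Upk3b, a mesothelial gene, which was at 0.0723, 27.002 and 101 CPM in the 3 E14.5 libraries in order. Xist, the X-inactivation RNA of females, was high in SAN E14.5 replicates 2 and 3 and in SAN P4 replicate 3, and genes of the Y chromosome were high in the other 3 libraries.

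Which transcripts differ between the SAN of late embryos and that of newborn mice was asked with limma on log2(CPM + 1), over all 18 SAN and RA libraries fitted together. Of 17568 genes tested, 1448 (8.24%) passed a Benjamini-Hochberg adjusted p under 0.05, and only these are said to have risen or fallen. There were 676 (3.85%) higher at P4 and 772 (4.39%) lower. These shares apply to each list count below, and a few calls in a list are not read as a result about it. Among the genes that passed, 545 rose and 618 fell by more than 2-fold, and 75 rose and 37 fell by more than 8-fold. The median over all genes tested was -0.10 on the log2 scale, and differences are given on that scale with their SE. From P4 to P14, 982 genes (5.59%) passed in SAN, 471 (2.68%) of them higher and 511 (2.91%) lower at P14, and since that comparison shares the P4 libraries, its values are only set beside those from E14.5 to P4. The pseudocount of 1 understates the differences of low genes. The balance of rises and falls depended on the processing. Scaling to the sarcomere genes, which put the median over all genes at -0.48, gave 394 higher and 2640 lower, while scaling to equal upper quartiles gave 579 and 679. On recovered reads, which changes the model as well, edgeR called 817 higher and 417 lower and DESeq2 1221 and 732. The counts also rested on single libraries. Rises numbered 395 without SAN E14.5 replicate 1, 418 without SAN E14.5 replicate 2 and 429 without SAN P4 replicate 2. Falls numbered 410, 421 and 489 without SAN E14.5 replicates 1, 2 and 3 in turn, and 460 and 420 without SAN P4 replicates 1 and 2. The plot of level against difference places the named genes among all genes tested.

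**Figure D1:**
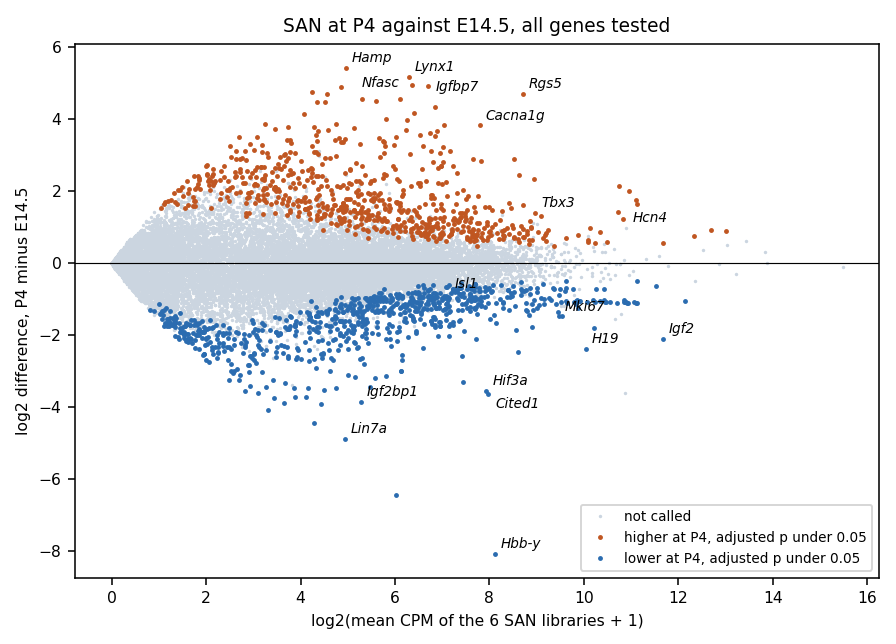
Each point is 1 of 17568 genes, with the mean level of the 6 SAN libraries on the x axis (log2 of CPM + 1) and the log2 difference, P4 minus E14.5, on the y axis. Orange points are the 676 genes that rose and blue points the 772 that fell, Hamp has the largest labelled rise (5.42) and Hbb-y the largest labelled fall (-8.08).

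The 12 largest rises among well-detected genes whose libraries did not overlap were Hamp, Lynx1, Nfasc, Igfbp7, Cntn2, Itgb6, Rgs5, C3, Paqr9, Syt13, Fam163a and Iigp1. Over all genes tested, 24.8% had 3 P4 libraries that did not overlap with the 3 E14.5 libraries, 9.6% with P4 above and 15.2% with P4 below. Hamp encodes hepcidin, a hormone that blocks iron export from cells. It was at 0, 0.0616 and 1.10 CPM at E14.5 and at 31.8, 86.3 and 60.7 CPM at P4, so every P4 library was more than 20 CPM above every E14.5 library (log2 difference 5.42 ± 0.52, adjusted p = 1.0e-06). At P14 it was at 226, 456 and 135 CPM, higher again than at P4 (2.10, adjusted p = 0.019). Its near-identical copy Hamp2 could share these reads. Hfe2, which encodes hemojuvelin, a co-receptor of the BMP signal that turns on hepcidin, went from 27.6, 33.5 and 23.3 CPM to 192, 187 and 67.4 CPM (2.23 ± 0.33, adjusted p = 1.6e-04).

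Several of the largest rises encode proteins of the cell surface that are best known from nerve fibres. Lynx1 encodes a membrane-anchored protein that damps nicotinic acetylcholine receptors, and was at 2.02, 1.91 and 5.82 CPM at E14.5 and 237, 119.9 and 99.4 CPM at P4 (5.19 ± 0.34, adjusted p = 6.7e-09). Nfasc encodes neurofascin, an adhesion molecule that gathers sodium channels at nodes of Ranvier. Its E14.5 libraries held 6.29, 4.56 and 2.21 CPM and its P4 libraries 187, 159.6 and 130.1 CPM (4.97 ± 0.62, adjusted p = 2.5e-05). Cntn2 encodes contactin 2, an axonal adhesion molecule that also marks the cardiac conduction system, and went from 0.362, 1.05 and 0.401 CPM to 20.1, 52.9 and 92.8 CPM (4.91 ± 0.69, adjusted p = 1.1e-04). In each of these 3 genes the groups lay far apart, with the lowest P4 library at least 15 CPM above the highest E14.5 library. Syt13, an atypical synaptotagmin, and Fam163a rose by 4.56 and 4.50.

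The other large rises were Rgs5, Igfbp7, Itgb6, Paqr9, Iigp1 and C3. Rgs5, a regulator of G protein signals that marks pericytes, was at 25.7, 9.99 and 59.1 CPM and then at 501, 423 and 1484 CPM (4.71 ± 0.60, adjusted p = 3.5e-05), with SAN P4 replicate 3 the highest. Igfbp7, a secreted IGF-binding protein of vessel walls, rose from 14.5, 2.22 and 3.51 CPM to 118, 188 and 287 CPM (4.94 ± 0.42, adjusted p = 2.8e-07) and was at 846, 627 and 539 CPM at P14. Itgb6, an integrin chain that activates TGF-beta, and Paqr9, a membrane receptor of the progestin and adiponectin receptor family, rose by 4.76 and 4.56. Iigp1, an interferon-inducible GTPase, rose by 4.48. C3, the central complement protein, rose by 4.71 (adjusted p = 0.0098); without SAN P4 replicate 1 it did not pass (log2 difference 4.07, adjusted p = 0.0504). The other 11 passed whichever of the 6 SAN libraries was left out.

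**Figure D2:**
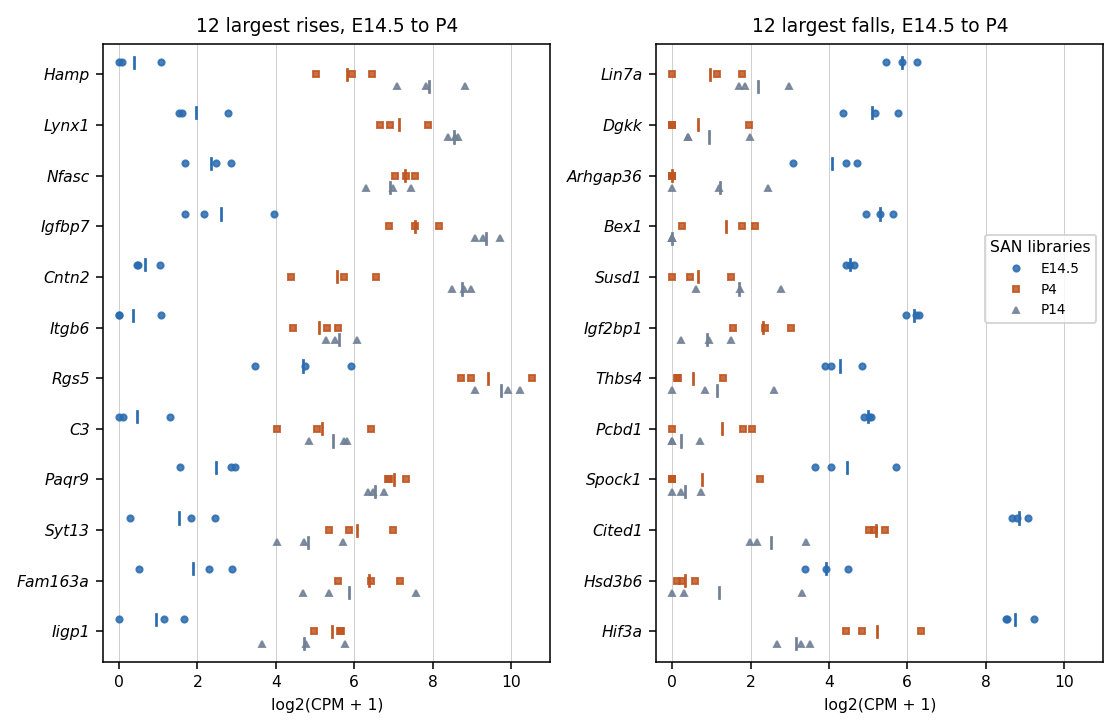
Points are the 3 SAN libraries of each stage on log2(CPM + 1), short lines are group means, and rows are the 12 largest rises (left) and the 12 largest falls (right) from E14.5 to P4. The E14.5 circles and the P4 squares do not overlap in any row, as the rule for these genes requires, and the P14 triangles show the later level of each gene.

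The 12 largest falls were Lin7a, Dgkk, Arhgap36, Bex1, Susd1, Igf2bp1, Thbs4, Pcbd1, Spock1, Cited1, Hsd3b6 and Hif3a, and all 12 passed whichever of the 6 libraries was left out. Lin7a, a scaffold protein of cell polarity and synapses, was at 74.8, 57.2 and 42.7 CPM at E14.5 and 1.19, 0 and 2.44 CPM at P4 (-4.88 ± 0.50, adjusted p = 2.4e-06). Arhgap36, a fetal protein that inhibits protein kinase A, was at 7.52, 20.8 and 25.4 CPM and then had no read in any P4 library. Its E14.5 mean of 17.9 CPM was 59.5 times the limit of 3 reads at P4, a limit that covers counting error only. Cited1, a transcriptional co-regulator of fetal tissues, fell from 539, 446 and 404 CPM to 31.7, 34.6 and 42.4 CPM (-3.64 ± 0.43, adjusted p = 1.5e-05) and was at 2.95, 3.47 and 9.603 CPM at P14. Its 3 stages formed a series with no overlap between neighbours. Hif3a, an inhibitory partner in the hypoxia response, fell from 363, 371 and 600.5 CPM to 20.5, 27.96 and 81.2 CPM (-3.54 ± 0.41, adjusted p = 1.1e-05).

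Among the other large falls, Dgkk, a diacylglycerol kinase, had a log2 difference of -4.45 and Bex1, a small adaptor protein of developing nerve and muscle, one of -3.91. Thbs4, a matrix thrombospondin, was at 14.0, 27.9 and 15.6 CPM and 0.0916, 0.1003 and 1.48 CPM. Spock1, a proteoglycan, had log2 difference -3.72, Pcbd1, a pterin recycling enzyme, -3.72, Susd1 -3.90 and Hsd3b6, a steroid dehydrogenase, -3.61.

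Of 13 tested genes for pacemaker channels and junctions, 4 rose and none fell, with a list median of 0.47 against -0.10 over all genes tested. Cacna1g, which encodes the T-type calcium channel Cav3.1, was at 38.7, 36.5 and 15.4 CPM at E14.5 and 397, 429.7 and 410.5 CPM at P4 (3.83 ± 0.42, adjusted p = 5.4e-06). Its groups did not overlap, and it passed whichever library was left out. At P14 it was at 288, 418 and 188 CPM, which did not pass the test against P4 (adjusted p = 0.52).

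Accessory subunits of the L-type calcium channel were also among the rises in this list. Cacnb2 went from 177, 175 and 115 CPM to 642, 501 and 235 CPM (1.46 ± 0.35, adjusted p = 0.012), but it did not pass without SAN E14.5 replicate 3, SAN P4 replicate 1 or SAN P4 replicate 2, each left out alone (adjusted p 0.061 to 0.070). Cacna2d1 rose by 0.89 (adjusted p = 0.023), and it did not pass without SAN E14.5 replicate 1, SAN E14.5 replicate 3 or SAN P4 replicate 1, each left out alone (adjusted p 0.059 to 0.15). The count of rises in the list was 2 without SAN E14.5 replicate 3 and 2 without SAN P4 replicate 1. Hcn4 itself had a log2 difference of 0.98 ± 0.34 (adjusted p = 0.075), with the 3 P4 libraries above the 3 E14.5 libraries, and did not pass. Cacna1d, the pore of the L-type channel Cav1.3, stood likewise just outside (0.89, adjusted p = 0.068).

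The node's transcription factors and markers moved in both directions, with 2 rises and 2 falls among 12 genes tested. Tbx3, the repressor of the working atrial program in the node, was at 289, 324 and 215 CPM at E14.5 and 858, 750.2 and 577 CPM at P4, without overlap (1.398 ± 0.34, adjusted p = 0.013). That call rested on the full set of libraries: it did not pass without SAN E14.5 replicate 3, SAN P4 replicate 1 or SAN P4 replicate 2, each left out alone (adjusted p 0.0519 to 0.067). Isl1, a factor of cardiac progenitors and of the early node, was at 165, 246 and 125 CPM and 149, 108 and 51.7 CPM. Its groups overlapped and it did not pass (-0.86, adjusted p = 0.43), whereas at P14 it was at 18.9, 5.06 and 27.4 CPM, below P4 (-2.66, adjusted p = 0.0092). Shox2, which represses Nkx2-5 in the node, had a log2 difference of -0.87 (adjusted p = 0.29) and Tbx18, which shapes the node's head, one of -0.38 (adjusted p = 0.39).

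The fall with the smallest p among the node markers was Cckar, the receptor for cholecystokinin. It was at 327, 329.6 and 264 CPM at E14.5, 73.4, 19.2 and 18.5 CPM at P4 and 2.29, 4.93 and 2.32 CPM at P14, a series in which no neighbouring stages overlapped. Its log2 difference was -3.31 ± 0.56, adjusted p = 6.2e-04 from E14.5 to P4 and -2.94 (adjusted p = 0.0035) from P4 to P14. Bmp4, a secreted BMP ligand, and Alox8, a lipoxygenase, were the other calls of this list, at log2 differences of -1.42 and 1.87. Leaving out 1 library at a time ended the call of Bmp4 in 4 of 6 cases and that of Alox8 in 2, and without SAN P4 replicate 2 no gene of the list rose.

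Some genes of working atrial muscle fell in the SAN libraries. Of 13 tested, 6 fell and none rose, with a median of -1.68, and leaving out 1 library gave 2 to 7 falls. The count was 2 without SAN E14.5 replicate 3, 2 without SAN P4 replicate 2, 3 without SAN P4 replicate 1 and 4 without SAN E14.5 replicate 1. Of the E14.5 libraries, SAN E14.5 replicate 3 held the most Nppa, Gja5 and Npr3, but not the most Gja1 or Bmp10. How much atrial tissue each SAN library held was not tested. Gja1, which encodes connexin 43, the main gap junction protein of working muscle, was at 56.4, 28.1 and 48.05 CPM at E14.5 and 7.52, 11.03 and 13.1 CPM at P4 (-1.94 ± 0.33, adjusted p = 5.8e-04). At P14 it was back at 44.2, 155 and 59.9 CPM (2.74, adjusted p = 3.0e-05). Npr3, the clearance receptor for natriuretic peptides, is also a marker in the endothelial and endocardial list below. It fell from 52.1, 22.8 and 91.7 CPM to 15.5, 7.52 and 16.005 CPM (-1.87 ± 0.34, adjusted p = 0.0013). Gja1 and Npr3 both held whichever SAN library was left out.

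Nppa, the atrial natriuretic peptide and the textbook marker of working atrium, was low throughout, at 10.4, 1.60 and 34.4 CPM and then 0.734, 0.1003 and 1.83 CPM. The lowest E14.5 library and the highest P4 library overlapped, and the fall (-2.54 ± 0.59, adjusted p = 0.0094) was not stable, since it did not pass without SAN E14.5 replicate 3 or SAN P4 replicate 2, each left out alone (adjusted p 0.060 to 0.066). Gja5, which encodes connexin 40, overlapped between the stages (67.6, 40.8 and 267 CPM against 5.32, 37.4 and 84.5 CPM) and did not pass (adjusted p = 0.097). Nkx2-5, the cardiac factor kept low in the node, was at 9.25, 4.13 and 7.42 CPM and 2.29, 9.12 and 2.78 CPM (adjusted p = 0.57).

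Fetal sarcomere isoforms fell in a few cases. Tnni1, the slow skeletal troponin I that fetal heart uses, fell from 1099.7, 1217 and 936 CPM to 486, 372 and 319 CPM (-1.48 ± 0.22, adjusted p = 2.4e-04) and was at 12.8, 11.996 and 14.8 CPM at P14. Myh7, the slow beta myosin heavy chain that the fetal mouse heart expresses, fell from 2916, 2342 and 2223 CPM to 1093, 1264 and 1271 CPM (-1.04 ± 0.19, adjusted p = 0.0013). These were the 2 falls among 11 fetal and embryonic muscle isoforms tested, and none rose. Without SAN P4 replicate 3 there were 4 falls, and without SAN P4 replicate 1 there was 1 rise. Myh6, the alpha myosin heavy chain, was at 9576, 11392 and 10870.0 CPM and 8278, 9815 and 7773 CPM and did not pass (-0.30, adjusted p = 0.33).

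Of 22 mature sarcomere genes, 7 rose and 2 fell, and without SAN E14.5 replicate 2 or SAN P4 replicate 2 there were 4 rises in each case. Xirp2, an actin-binding protein of intercalated discs, went from 7.16, 28.4 and 15.1 CPM to 189, 164 and 229 CPM (3.62 ± 0.44, adjusted p = 1.8e-05) and to 621, 476 and 814 CPM at P14. Tcap, the cap of titin at the Z disc, rose by 1.87 and Myoz2, a Z disc partner of calcineurin, by 1.30. All 3 passed with any SAN library left out. Ttn, the giant spring protein, had a difference of -0.10 and did not pass.

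In calcium handling, 6 of 22 genes rose and 1 fell. Pln, phospholamban, which holds back the calcium pump, was at 1382, 932 and 813 CPM and 5114, 3369.5 and 1872 CPM (1.65 ± 0.31, adjusted p = 0.0015). Atp2a2, the pump SERCA2 itself, was at 4433, 4844 and 4331 CPM and 11376, 8025 and 7015 CPM (0.93 ± 0.19, adjusted p = 0.0027), and Casq2, which buffers calcium in the sarcoplasmic reticulum, rose by 0.98 (adjusted p = 0.0029). The groups did not overlap in any of the 3, and SAN P4 replicate 1 had the highest level of Pln and Atp2a2. Ryr2, the calcium release channel, was at 1600.2, 1837 and 1925 CPM and 1826, 1346 and 1144 CPM, overlapping, and did not pass (-0.34, adjusted p = 0.36). Without SAN E14.5 replicate 2 there were 3 rises in this list, and without SAN P4 replicate 3 there were 9. When libraries were scaled to the sarcomere list, 2 of the 22 rose and 6 fell.

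Among 25 potassium channels 3 rose and 2 fell, where 3.85% and 4.39% of all genes tested did. These counts are not read as a result about the family. There was 1 fall whenever a library other than SAN P4 replicate 3 was left out. Kcnt2, a sodium-activated channel, rose from 2.02, 2.47 and 7.72 CPM to 7.71, 35.8 and 51.5 CPM (2.51 ± 0.52, adjusted p = 0.0035). It overlapped between the stages, since 1 E14.5 library and 1 P4 library both stood near 8 CPM. Kcnh7, of the ERG family, fell from 21.3, 13.9 and 36.1 CPM to 3.58, 8.82 and 0.0871 CPM (-2.66 ± 0.53, adjusted p = 0.0027). Scn7a, a sodium-sensing relative of the sodium channels, rose from 30.4, 31.6 and 19.6 CPM to 77.8, 126 and 141 CPM (2.03 ± 0.33, adjusted p = 4.1e-04) and to 636, 502 and 658 CPM at P14. With Cntn2 it made up the rises among 13 genes of sodium channels and conduction, in which 3 fell. Without SAN E14.5 replicate 3, SAN P4 replicate 1 or SAN P4 replicate 2 there was 1 fall each.

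Among 24 genes of autonomic and cAMP signalling, 3 rose and 2 fell, where 3.85% and 4.39% of all genes tested did. The list as a whole is not read as changed. Adcy1, a calmodulin-activated adenylyl cyclase that is known from pacemaker cells, fell from 24.7, 30.6 and 47.4 CPM to 2.84, 1.80 and 7.31 CPM (-2.93 ± 0.39, adjusted p = 6.5e-05), with all P4 libraries below all E14.5 libraries. Pde3a, which breaks down cAMP, rose from 146, 119 and 155 CPM to 336, 261 and 307 CPM (1.10 ± 0.19, adjusted p = 7.6e-04). Chrm2, the muscarinic receptor through which the vagus slows the node, was at 166, 173 and 129 CPM and 445, 328 and 229.6 CPM (1.05 ± 0.25, adjusted p = 0.011), but it did not pass without SAN E14.5 replicate 3 or SAN P4 replicate 1, each left out alone (adjusted p 0.056 to 0.067). Without SAN P4 replicate 3 the list gave 6 rises, and without SAN P4 replicate 1 it gave 1. The falls numbered 1 without SAN E14.5 replicate 1, SAN E14.5 replicate 3, SAN P4 replicate 2 or SAN P4 replicate 3. Adrb1, the main beta-adrenergic receptor of the heart, had a log2 difference of 0.65 (adjusted p = 0.41) and did not pass.

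Many genes of cell division fell. Of 25 genes of mitosis and cytokinesis, 19 fell and none rose, and all 25 differences were below 0, with a median of -1.87. Of 22 replication genes, 8 fell and all 22 differences were below 0, with a median of -1.29. Mki67, which codes for the Ki-67 protein of dividing cells, was at 1053, 1150.1 and 832 CPM at E14.5, 239, 285 and 678 CPM at P4 and 102, 118 and 148 CPM at P14 (-1.48 ± 0.26, adjusted p = 8.2e-04 from E14.5 to P4). Top2a, the topoisomerase that untangles chromosomes, was at 529, 437 and 299 CPM and 113, 84.99 and 225 CPM (-1.66 ± 0.28, adjusted p = 6.4e-04), and Ccnb2, a mitotic cyclin, at 99.99, 95.7 and 83.4 CPM and 10.2, 26.3 and 33.1 CPM (-2.10 ± 0.39, adjusted p = 0.0013). Ccna2, the cyclin of S phase, and Rrm2, the regulated subunit that makes deoxynucleotides, fell with log2 differences of -2.02 and -2.29.

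SAN P4 replicate 3 held the most Mki67, Top2a, Cenpf and Ccna2 of the 3 P4 libraries. With the 6 SAN libraries fitted alone, 6 of the 25 mitosis genes and 4 of the 22 replication genes fell. Without SAN P4 replicate 3 all 25 mitosis genes fell, while without SAN E14.5 replicate 1 or without SAN P4 replicate 2 there were 12 falls in each case. Replication genes gave 4 falls without SAN E14.5 replicate 1, 5 without SAN P4 replicate 1 and 5 without SAN P4 replicate 2. Among the drivers and brakes of the cycle, Cdkn1c, the imprinted cyclin-dependent kinase inhibitor p57, and Cdk4, the kinase of the G1 phase, fell (log2 differences -2.07 and -0.97), and of the 16 in all 3 fell and 1 rose. The rise, Ccnd2 (0.68, adjusted p = 0.027), did not pass in 4 of the 6 fits that left out a library. Ccnd1 and Cdkn1a, a cyclin and a kinase inhibitor of G1, did not pass (0.16 and 0.43).

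Promoters of many mitotic genes are known for CCAAT boxes and for the cell cycle homology region, TTTGAA, to which complexes that switch these genes off outside mitosis bind. RefSeq promoters (build GRCm38.p6) were matched for 17 of the 19 mitosis genes that fell, and both motifs were searched on both strands in the 250 bases before the start. CCAAT was present in 14 of these 17 genes and TTTGAA in 7. By promoter, that is 83.3% and 44.4% of 18, against 33.8% and 16% of 32851 promoters of all genes. Over the promoters of all tested mitosis genes the shares were 87% for CCAAT and 43.5% for TTTGAA, and over those of the tested replication genes 70% and 10%. A match is a description of these letters, and not a site of binding. The promoters of the 4 genes with the smallest p among the 7 are printed to show where the motif lies, with TTTGAA or its reverse complement TTCAAA in capitals, each 5′ to 3′ on the gene's strand.
Top2a (chr11:99024190-99024439, minus strand): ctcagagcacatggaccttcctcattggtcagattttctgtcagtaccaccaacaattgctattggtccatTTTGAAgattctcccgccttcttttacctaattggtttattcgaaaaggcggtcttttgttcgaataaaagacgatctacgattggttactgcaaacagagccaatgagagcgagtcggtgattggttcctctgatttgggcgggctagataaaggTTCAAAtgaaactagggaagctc
Mki67 (chr7:135716380-135716629, minus strand): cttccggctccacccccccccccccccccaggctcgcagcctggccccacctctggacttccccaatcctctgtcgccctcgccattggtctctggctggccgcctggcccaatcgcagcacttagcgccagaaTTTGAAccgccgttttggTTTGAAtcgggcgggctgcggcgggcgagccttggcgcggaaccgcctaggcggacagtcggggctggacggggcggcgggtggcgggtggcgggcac
Ccnb2 (chr9:70421555-70421804, minus strand): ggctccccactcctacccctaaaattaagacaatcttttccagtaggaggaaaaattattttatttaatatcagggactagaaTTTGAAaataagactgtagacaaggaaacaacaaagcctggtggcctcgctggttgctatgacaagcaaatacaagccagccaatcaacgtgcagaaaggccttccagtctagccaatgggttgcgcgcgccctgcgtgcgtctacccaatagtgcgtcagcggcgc
Ube2c (chr2:164769679-164769928, plus strand): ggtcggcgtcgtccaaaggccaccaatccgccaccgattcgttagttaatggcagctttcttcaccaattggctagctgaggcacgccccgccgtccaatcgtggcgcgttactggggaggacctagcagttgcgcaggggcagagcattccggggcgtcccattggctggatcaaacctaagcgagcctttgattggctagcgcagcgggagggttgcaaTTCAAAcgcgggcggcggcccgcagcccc

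In Ube2c and Top2a the last match starts 29 and 23 bases before the gene's start, Mki67 holds 2 matches, at 116 and 98 bases, and the match in Ccnb2 lies further away, at 167 bases. Ube2c, the ubiquitin-conjugating enzyme that starts exit from mitosis, fell from 185, 176 and 127 CPM to 50.3, 42.5 and 80.7 CPM (-1.51 ± 0.33, adjusted p = 0.0057).

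In fuel use, glycolysis genes fell and a few genes of fatty acid uptake rose. Of 22 genes of glucose uptake and glycolysis, 10 fell and 1 rose, and 9 or 10 fell whichever SAN library was left out. Eno1, the enolase of fetal and dividing tissue, was at 602, 562 and 599.96 CPM at E14.5, 139.7, 146 and 203 CPM at P4 and 154, 146 and 138 CPM at P14 (-1.86 ± 0.21, adjusted p = 6.1e-06 from E14.5 to P4). Slc2a1, the glucose transporter GLUT1, fell from 182, 173 and 252 CPM to 63.5, 68.0 and 67.2 CPM (-1.58 ± 0.26, adjusted p = 4.1e-04), and to 19.9, 20.1 and 20.01 CPM at P14. Pgam1, Gapdh, Pgk1 and Ldha, enzymes of the lower part of the pathway, fell with log2 differences of -1.31, -1.05, -1.21 and -1.43, and their groups did not overlap. The one rise was Pfkm, the muscle form of phosphofructokinase (106, 106 and 119 CPM against 269, 267 and 166 CPM, 1.04 ± 0.20, adjusted p = 0.0018), while Eno3 and Slc2a4, the muscle enolase and the insulin-responsive transporter GLUT4, did not pass (-0.10 and 0.48).

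Of 25 genes of fatty acid uptake and oxidation, 5 rose and none fell, with a median of 0.48. Acsl1, which activates long-chain fatty acids, was at 55.2, 41.7 and 22.4 CPM and 339, 222 and 208 CPM (2.71 ± 0.25, adjusted p = 8.6e-07). Cd36, the fatty acid transporter of the cell surface, was at 159, 156 and 174 CPM and 599, 532 and 432 CPM (1.66 ± 0.17, adjusted p = 2.4e-06), and Pdk4, the kinase that shuts pyruvate out of the mitochondrion, at 45.7, 53.4 and 53.9 CPM and 240.0, 173 and 102 CPM (1.65 ± 0.26, adjusted p = 3.6e-04). These 3 had no overlap and passed with any SAN library left out. Acadm and Hadha, enzymes of the beta-oxidation spiral, and Cpt2, which brings fatty acids into the mitochondrion, had differences of 0.30, 0.48 and 0.43 and did not pass. The list gave 3 rises without SAN P4 replicate 1. None of 25 tested genes of the respiratory chain and ATP synthase passed, with differences of -0.25 to 0.93 and a median of 0.10. By limma, 3 of the 25 had an unadjusted p under 0.05, namely Sdha, Cox7a1 and Cox8b, and edgeR called 0 of them and DESeq2 1.

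The hypoxia list, which shares members with glycolysis, split. Of 19 targets and regulators 2 rose and 5 fell. Epas1, the oxygen-regulated factor HIF-2alpha, went from 72.3, 55.5 and 61.8 CPM to 195, 241 and 316 CPM (1.95 ± 0.21, adjusted p = 4.5e-06) and to 630.4, 549 and 555 CPM at P14, with no overlap between neighbouring stages. Egln3, the prolyl hydroxylase PHD3 that marks HIF proteins for removal, rose from 33.7, 13.4 and 38.9 CPM to 206, 211 and 160.3 CPM (2.82 ± 0.45, adjusted p = 3.6e-04). The falls were Hif3a, given above, and 4 members of the glucose uptake and glycolysis list, Slc2a1, Pgk1, Ldha and Pdk1. Vegfa, Hif1a and Car9, the angiogenic factor, HIF-1alpha and a carbonic anhydrase induced by hypoxia, had differences of 0.24, -0.31 and 0.11 and did not pass.

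Of the 10 glycolysis genes that fell, all matched a RefSeq promoter and 4 held ACGTG, the core of the element to which HIF proteins bind, in the 250 bases before a start. By promoter that is 26.7% of 15, against 16.6% of all 32851. The share was 33.3% over the promoters of all tested glycolysis genes and 33.3% over those of the mitosis genes that fell. The letters were thus more frequent in the glycolysis genes that fell than over all promoters, which was not tested. By promoter they were not more frequent than in all tested glycolysis genes or in the mitosis genes that fell. The promoters of the 4 genes with the motif are printed, with ACGTG or its reverse complement CACGT in capitals. For Ldha the promoter that holds the motif is shown.
Pgam1 (chr19:41911621-41911870, plus strand): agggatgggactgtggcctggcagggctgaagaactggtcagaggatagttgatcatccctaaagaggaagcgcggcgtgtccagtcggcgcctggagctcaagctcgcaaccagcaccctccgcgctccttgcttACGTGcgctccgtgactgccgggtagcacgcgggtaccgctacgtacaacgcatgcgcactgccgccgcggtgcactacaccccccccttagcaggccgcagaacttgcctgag
Slc2a1 (chr4:119108495-119108744, plus strand): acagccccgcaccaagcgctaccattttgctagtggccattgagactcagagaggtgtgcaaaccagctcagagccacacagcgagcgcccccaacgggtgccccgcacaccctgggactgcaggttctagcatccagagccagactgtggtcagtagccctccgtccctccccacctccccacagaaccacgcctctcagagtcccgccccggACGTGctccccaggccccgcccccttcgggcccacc
Pgk1 (chrX:106186850-106187099, plus strand): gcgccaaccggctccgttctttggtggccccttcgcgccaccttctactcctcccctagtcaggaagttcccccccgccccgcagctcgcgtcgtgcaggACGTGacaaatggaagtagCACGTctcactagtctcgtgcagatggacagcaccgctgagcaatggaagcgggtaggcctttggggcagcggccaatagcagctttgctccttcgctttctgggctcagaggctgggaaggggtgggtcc
Ldha (chr7:46845554-46845803, plus strand): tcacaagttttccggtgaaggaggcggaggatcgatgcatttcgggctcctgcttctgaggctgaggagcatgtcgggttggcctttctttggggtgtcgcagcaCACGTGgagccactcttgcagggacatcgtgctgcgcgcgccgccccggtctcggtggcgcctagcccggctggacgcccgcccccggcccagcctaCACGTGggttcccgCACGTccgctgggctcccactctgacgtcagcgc

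Ldha holds the motif in 3 separate stretches, 2 of them the palindrome CACGTG in which it occurs on both strands, Pgk1 holds 2 and the other genes 1 each. Ldha, lactate dehydrogenase A, was at 546, 618 and 812 CPM at E14.5 and 219, 165 and 382 CPM at P4, and Pgk1, phosphoglycerate kinase, at 304, 274 and 302 CPM and 108, 115 and 161 CPM.

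**Figure D3:**
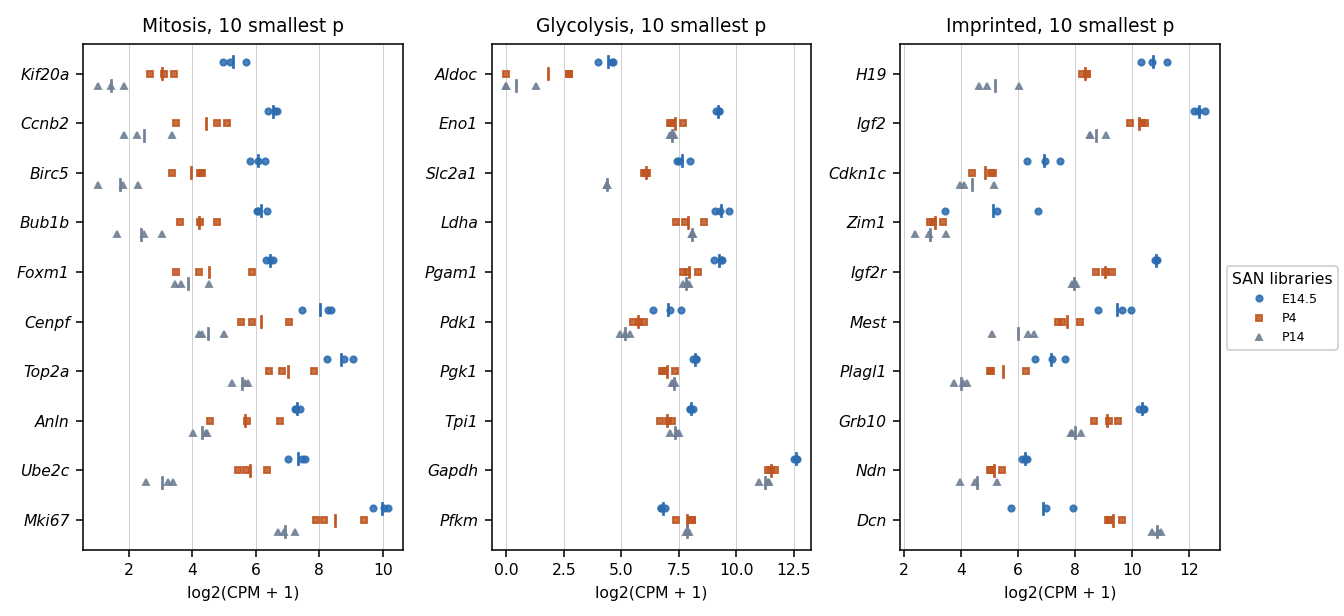
Points are single SAN libraries at E14.5, P4 and P14 on log2(CPM + 1), with short lines for group means, for the 10 members with the smallest p of the mitosis, glycolysis and imprinted gene lists. In the mitosis panel the P4 squares lie left of the E14.5 circles and the P14 triangles mostly further left, and Pfkm and Dcn are the members with P4 to the right of E14.5.

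Among 22 regulators of mitochondria and nuclear receptors, 3 rose and 1 fell, where 3.85% and 4.39% of all genes tested did. The list as a whole is not read as changed. The fall, Esrrg (-1.03), did not pass in 5 of the 6 fits that left out a library, all but that without SAN P4 replicate 1, and the rise of Nr4a1 (2.59) did not pass in 4. Klf9, a factor that glucocorticoid and thyroid hormone induce, was at 5.64, 3.33 and 3.41 CPM and 61.5, 65.6 and 38.0 CPM (3.44 ± 0.40, adjusted p = 9.4e-06). Nr3c2, the mineralocorticoid receptor, was at 12.7, 10.8 and 9.33 CPM and 57.7, 54.1 and 39.0 CPM (2.09 ± 0.40, adjusted p = 0.0019). Neither gene overlapped between the stages. Ppargc1a, the coactivator of mitochondrial genes, and Ppara, the receptor for fatty acids, did not pass (0.47 and 0.23).

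Imprinted genes that promote or restrain fetal growth fell together: 10 of 18 fell and 1 rose, with a median of -1.10, and 7 to 9 fell with 1 SAN library left out. Igf2, the fetal growth factor, was at 4631, 5132 and 6058 CPM at E14.5, 1412, 980.4 and 1298 CPM at P4 and 540.0, 370.4 and 370.4 CPM at P14 (-2.11 ± 0.23, adjusted p = 3.8e-06 from E14.5 to P4). H19, the noncoding RNA expressed from the other parental allele beside it, was at 1646, 1276 and 2386 CPM, 344, 341 and 301 CPM and 64.6, 23.9 and 29.0 CPM (-2.38 ± 0.27, adjusted p = 8.7e-06). Igf2r, the receptor that clears Igf2, was at 1836, 1893 and 1781 CPM, 425, 535 and 631 CPM and 238, 248 and 263 CPM (-1.81 ± 0.15, adjusted p = 2.2e-07). In all 3 genes the 3 stages stood in separate ranges. Grb10, an imprinted adaptor that restrains insulin signals, Mest, and Plagl1, a factor that regulates other imprinted genes, fell with log2 differences of -1.24, -1.77 and -1.68. The member that rose was Dcn, decorin, which is taken up with the matrix below, and Meg3, Rian and Mirg, noncoding RNAs of 1 imprinted cluster, did not pass (0.81, 0.04 and 0.53).

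RNA-binding proteins of fetal tissue that act on Igf2 and other messengers fell too. Igf2bp1 was at 73.3, 61.8 and 78.1 CPM at E14.5 and 1.93, 7.12 and 4.18 CPM at P4 (-3.85 ± 0.44, adjusted p = 9.3e-06), and Igf2bp3 at 31.2, 47.2 and 46.1 CPM and 4.04, 11.5 and 13.6 CPM (-2.11 ± 0.38, adjusted p = 0.0012). Hmga2, a chromatin protein of fetal growth, was at 28.4, 18.4 and 29.7 CPM and 0.734, 0.501 and 4.00 CPM (-3.47 ± 0.65, adjusted p = 0.0016). With Hdac2 they were the 4 falls among 16 genes of this list, whose median was -0.82. The fall of Hdac2 (-0.62) did not pass in 5 of the 6 fits that left out a library. Igf2bp2 did not pass (-0.73, adjusted p = 0.23). Of 12 muscle splicing regulators 2 rose, and Mbnl1, which drives mature splice forms, went from 173, 174 and 191 CPM to 363, 311 and 337 CPM (0.90 ± 0.16, adjusted p = 7.2e-04).

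Matrix genes gave the largest share of rises among the lists of the plot of gene lists. Of 24 collagens and fibrillar matrix genes 14 rose and 1 fell, with a median of 1.42. Leaving out 1 library gave 9 to 20 rises, 9 without SAN E14.5 replicate 2. Col1a1 and Col1a2, the chains of type I collagen, were at 405, 699 and 1525 CPM and 624, 956 and 1166 CPM at E14.5 and at 2292, 3788 and 3269 CPM and 1812, 2723 and 2793 CPM at P4 (2.01 and 1.44). Col15a1, a collagen of the basement membrane zone, rose from 22.0, 25.7 and 40.3 CPM to 298, 245 and 229 CPM (3.13 ± 0.36, adjusted p = 8.9e-06), and Col14a1, which organises collagen fibrils, from 34.4, 27.5 and 67.7 CPM to 134, 342 and 603 CPM (2.89 ± 0.37, adjusted p = 3.8e-05). Eln, elastin, was at 12.9, 4.93 and 8.53 CPM and 23.5, 128 and 528 CPM (3.69 ± 0.64, adjusted p = 6.9e-04), with more than 20-fold between the lowest and the highest P4 library. Fbn2, the fetal fibrillin, was the fall (-1.07, adjusted p = 6.3e-04).

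Small proteoglycans and matrix regulators followed, with 11 rises and 2 falls of 24. Thbs4, given above, was 1 of the falls. Prelp, a proteoglycan that ties basement membranes to collagen, was at 3.90, 4.44 and 2.11 CPM and 63.3, 42.7 and 36.4 CPM (3.44 ± 0.38, adjusted p = 6.0e-06). Bgn and Dcn, biglycan and decorin, which bind collagen and TGF-beta, rose by 2.35 and 2.46, and Ogn, osteoglycin, by 2.64. In Bgn, Ogn and Col14a1 the order of the P4 libraries was the same, with SAN P4 replicate 1 lowest and SAN P4 replicate 3 highest. In the basement membrane list 3 of 15 rose, among them Nid1 (1.19), which links laminin to collagen IV, and Col4a2 (0.89). The 1 fall, Nid2 (-0.61), did not pass when any library other than SAN P4 replicate 3 was left out, and without that library 2 fell. None of the 15 rose when libraries were scaled to the sarcomere genes.

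Fibroblast markers moved with these genes: 9 of 16 rose and 1 fell, and their summed level was 4683 to 7645 CPM in the E14.5 libraries, 8669 to 19923 CPM in the P4 libraries and 21297 to 24544 CPM in the P14 libraries. The list shares 6 of the matrix genes that rose, Col1a1, Col1a2, Col3a1, Dcn, Lum and Postn. None of the 16 was at 0 throughout a stage, and their part in the rise of matrix genes was not tested. They were not uniform. Mfap5, a microfibril protein, and Thy1, a surface marker, rose by 2.77 and 2.39, while Pdgfra, the receptor that defines cardiac fibroblasts, fell from 245, 219.7 and 165 CPM to 98.2, 123 and 94.2 CPM (-0.98 ± 0.26, adjusted p = 0.022); it did not pass without SAN E14.5 replicate 1, SAN E14.5 replicate 2, SAN P4 replicate 1 or SAN P4 replicate 3, each left out alone (adjusted p 0.053 to 0.11). Tcf21, their defining transcription factor, was at 38.1, 46.3 and 81.0 CPM and 17.2, 79.1 and 190.1 CPM and did not pass (adjusted p = 0.83).

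**Figure D4:**
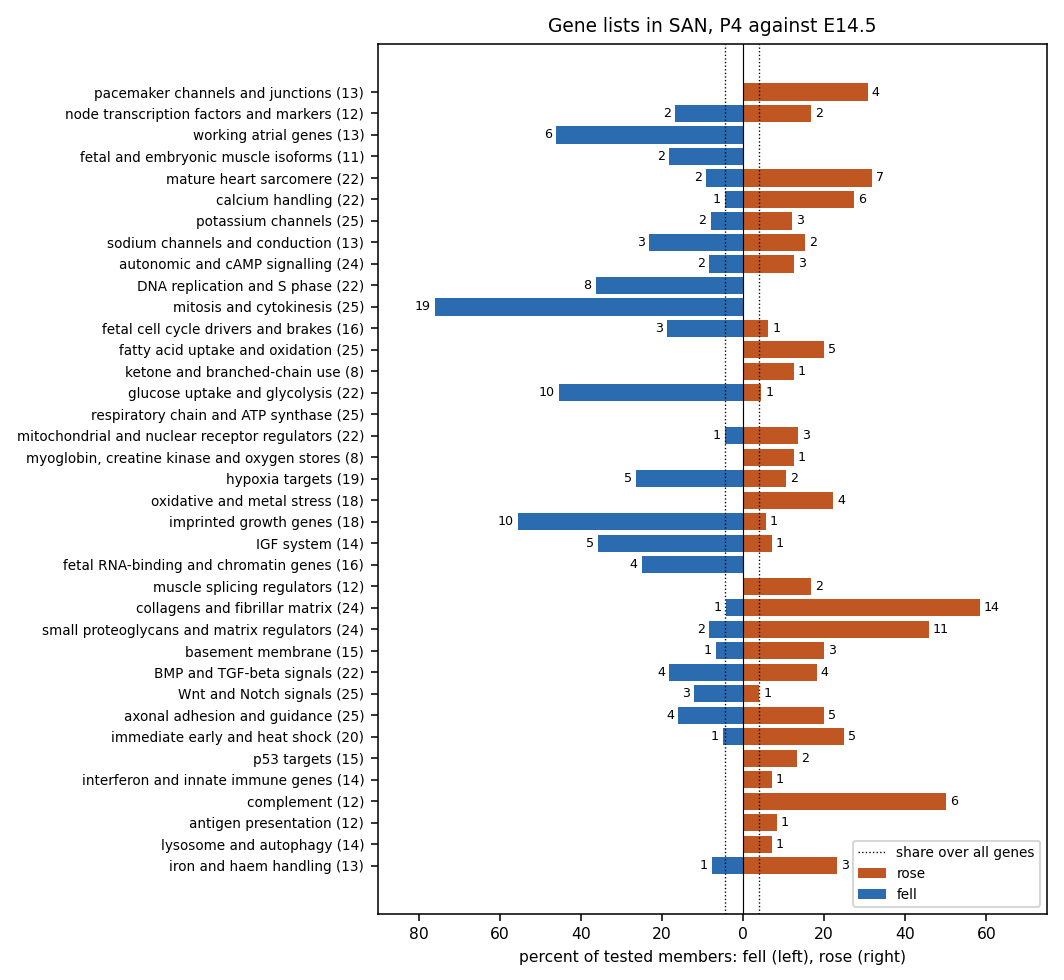
Bars give the percentage of tested members of each list that rose (orange, right) or fell (blue, left) in SAN from E14.5 to P4, numbers beside the bars are counts, and the number tested is in brackets. Dotted lines mark 3.85% and 4.39%, the shares of all 17568 genes that rose and fell, and the longest bars are the 19 of 25 mitosis genes that fell and the 14 of 24 collagen and matrix genes that rose.

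Secreted signals of the BMP and TGF-beta family were divided, with 4 rises and 4 falls of 22. Bmp7, a BMP ligand of developing tissues, was at 329.9, 299.7 and 254 CPM at E14.5, 44.1, 54.7 and 46.1 CPM at P4 and 7.94, 2.67 and 2.40 CPM at P14, and no 2 stages overlapped (-2.58 ± 0.41, adjusted p = 3.6e-04 from E14.5 to P4). Mstn, myostatin, which limits muscle growth, rose from 20.03, 28.6 and 17.3 CPM to 305, 138 and 59.8 CPM (2.61 ± 0.58, adjusted p = 0.0063), with SAN P4 replicate 1 highest. Bmp2 rose by 1.87, and without SAN P4 replicate 2 it did not pass (log2 difference 1.48, adjusted p = 0.090). Without that library 2 members rose and 1 fell, and with any of the other libraries but SAN P4 replicate 3 left out, 2 fell. In the list of Wnt and Notch signals 1 of 25 rose and 3 fell, and none of the 4 passed in more than 3 of the 6 fits that left out a library. Over all genes tested 3.85% rose and 4.39% fell, so these counts are not read as a result about the list.

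Of 25 genes of axonal adhesion and guidance, 5 rose and 4 fell, and the median was 0.01. Besides Lynx1, Nfasc and Cntn2, Ntn1, the guidance cue netrin 1, rose from 36.4, 14.8 and 19.8 CPM to 105, 77.6 and 56.9 CPM (1.77 ± 0.30, adjusted p = 6.9e-04). Sema3a, a secreted repellent of sympathetic axons that is known to pattern cardiac nerves, fell from 41.0, 57.1 and 45.1 CPM to 2.48, 1.30 and 9.05 CPM (-3.48 ± 0.53, adjusted p = 2.5e-04), and Ncam1 from 314, 308 and 315 CPM to 104, 148 and 160.1 CPM (-1.20 ± 0.26, adjusted p = 0.0061). Without SAN E14.5 replicate 3, SAN P4 replicate 1 or SAN P4 replicate 2, the falls in this list numbered 2 each. Of 9 tested markers of autonomic neurons 1 rose and 1 fell, and their summed level was 186 to 263 CPM at E14.5 and 149 to 342 CPM at P4. Phox2a and Prph, both neuron-defining, were at 0 in all 3 E14.5 libraries and each in 2 of the 3 P4 libraries. Dbh, which makes noradrenaline, was the rise (1.23, 1.11 and 4.11 CPM against 14.4, 15.5 and 14.4 CPM, 2.45 ± 0.43, adjusted p = 9.0e-04), while Th, the first enzyme of that pathway, was at 185, 38.6 and 9.83 CPM at P4 and did not pass. Glial markers summed to 117 to 190 CPM at E14.5 and 257 to 348 CPM at P4, where Pmp22 alone of 11 rose (1.15), Gfap was at 0 in all 3 P4 libraries and Sox10 did not pass (0.99). The part of nerve or glial cells in the rise of Nfasc, Cntn2 and Lynx1 was not tested.

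Complement genes rose in 6 of 12 tested, and all 12 differences were above 0, with a median of 1.54. C1s, a protease of the first complement component, had no read at E14.5 and was at 11.4, 6.92 and 14.4 CPM at P4. Its P4 mean of 10.9 CPM was 36.3 times the limit of 3 reads at E14.5, a limit that covers counting error only. Serping1, the inhibitor of C1s, went from 18.7, 26.1 and 31.5 CPM to 69.6, 86.2 and 113 CPM (1.78 ± 0.34, adjusted p = 0.0018). Macrophage and leukocyte markers rose in 4 of 18 and fell in none, with a summed level of 106 to 191 CPM at E14.5, 231 to 358 CPM at P4 and 649 to 832 CPM at P14. The lists share C1qc. None of the 18 was at 0 throughout a stage, and their part in the rise of complement genes was not tested. Lyz2, lysozyme of myeloid cells, rose by 2.06 and Mrc1, the mannose receptor of resident macrophages, by 1.73. The count of macrophage rises was 2 in each case without SAN E14.5 replicate 1, SAN E14.5 replicate 2, SAN P4 replicate 1 or SAN P4 replicate 2.

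Stress and immediate early genes were mixed. Sod3, the extracellular superoxide dismutase, was at 0.434, 0.0616 and 0.502 CPM at E14.5, 9.08, 18.4 and 15.9 CPM at P4 and 69.2, 135 and 70.02 CPM at P14 (3.50 ± 0.47, adjusted p = 6.5e-05 from E14.5 to P4), and Mt2, a metallothionein, at 0.362, 0.925 and 0.502 CPM, 21.8, 17.3 and 7.57 CPM and 6.38, 3.73 and 3.68 CPM (3.28 ± 0.55, adjusted p = 5.5e-04). They were among the 4 rises, with no fall, of 18 genes of oxidative and metal stress. Of 20 immediate early and heat shock genes 5 rose and 1 fell. Fosl2, a subunit of AP-1, rose from 15.8, 12.8 and 10.5 CPM to 47.2, 39.2 and 55.9 CPM (1.79 ± 0.29, adjusted p = 3.9e-04), and Btg2, an antiproliferative gene among 15 p53 targets, from 12.7, 8.75 and 10.8 CPM to 63.2, 63.5 and 36.1 CPM (2.20 ± 0.30, adjusted p = 7.2e-05). Fos, Jun and Egr1, which respond within minutes to handling, had differences of 2.12, 0.96 and 1.12 and did not pass. Leaving out 1 library gave 1 to 5 rises in the immediate early list, with 1 without SAN E14.5 replicate 2, 2 without SAN P4 replicate 1 and 3 without each of SAN E14.5 replicate 1, SAN E14.5 replicate 3 and SAN P4 replicate 2.

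Markers of tissues beside the node were also followed. The embryonic globins Hbb-y and Hba-x, made by red cells of yolk sac origin, fell from 767, 392 and 495 CPM and 154, 73.7 and 154 CPM to 0, 0 and 6.61 CPM and 0, 0 and 1.74 CPM (-8.08 and -6.44), and were the 2 falls among 13 erythroid genes. Of 5 cartilage genes, Col2a1 and Col9a1 fell (log2 differences -2.996 and -2.82) from levels of at most 15.7 CPM. Acan, the cartilage proteoglycan aggrecan, rose from no read at E14.5 to 0, 21.6 and 54.9 CPM at P4 (3.44, adjusted p = 0.037), but did not pass in 5 of the 6 fits that left out a library. By limma none of 12 markers of epicardium and mesothelium passed, 2 of them had an unadjusted p under 0.05, edgeR and DESeq2 called 0, and their summed level was 318 to 579 CPM at E14.5 and 446 to 484 CPM at P4. Of 16 endothelial and endocardial genes 2 rose and 1 fell. Sox18, an endothelial transcription factor, rose from 13.6, 15.04 and 13.4 CPM to 49.0, 31.0 and 57.8 CPM (1.60 ± 0.33, adjusted p = 0.0036), while Pecam1 and Cdh5, which define endothelium, did not pass (0.49 and 0.09). Eng, a TGF-beta co-receptor, was the other rise (0.79, lost in 4 of the 6 fits that left out a library), and Npr3, given above, was the fall. The mast cell proteases Tpsb2, Cma1 and Cpa3 rose by 3.67, 3.75 and 4.02, but each lost its call in 4 or 5 of the 6 fits that left out a library. Of the markers of airway and thymus that were in the table, none reached the level for testing.

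Whether the change from E14.5 to P4 differed between the node and the working atrium was tested as the SAN change minus the RA change. RA P4 replicate 3 was the shallowest of the 18 libraries, with 5101711 recovered reads and 15657 detected genes. For it 3 reads correspond to 0.646 CPM. RA E14.5 replicate 2 held 6608420 reads. Of 17568 genes 202 (1.15%) passed, 107 (0.609%) with a more positive change in SAN and 95 (0.541%) with a more negative one, and 106 of the 202 had also passed in SAN. The more positive changes numbered 68 and 60 without SAN E14.5 replicates 1 and 2, and 67 and 59 without RA E14.5 replicates 1 and 2. The more negative ones numbered 59 without SAN E14.5 replicate 2, and 63 and 60 without RA E14.5 replicates 1 and 3. In RA alone, 1193 genes (6.79%) passed between the stages, 568 (3.23%) higher and 625 (3.56%) lower at P4. For Hamp the RA difference was 0.36 (adjusted p = 0.77), and the difference between tissues was 5.06 ± 0.73, adjusted p = 0.0010. Syt13 and Fam163a rose in SAN and had RA differences of -1.40 and -1.69, which made differences between tissues of 5.96 and 6.19 (adjusted p = 0.0039 and 0.0022). Epas1 also had a more positive change in SAN (1.61 ± 0.30, adjusted p = 0.0070), its RA difference being 0.34. These 4 passed with any of the 12 libraries of E14.5 and P4 left out. The difference for Hamp did not pass on recovered reads, with edgeR (2.48, adjusted p = 0.98) or DESeq2 (3.25, adjusted p = 0.69).

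**Figure D5:**
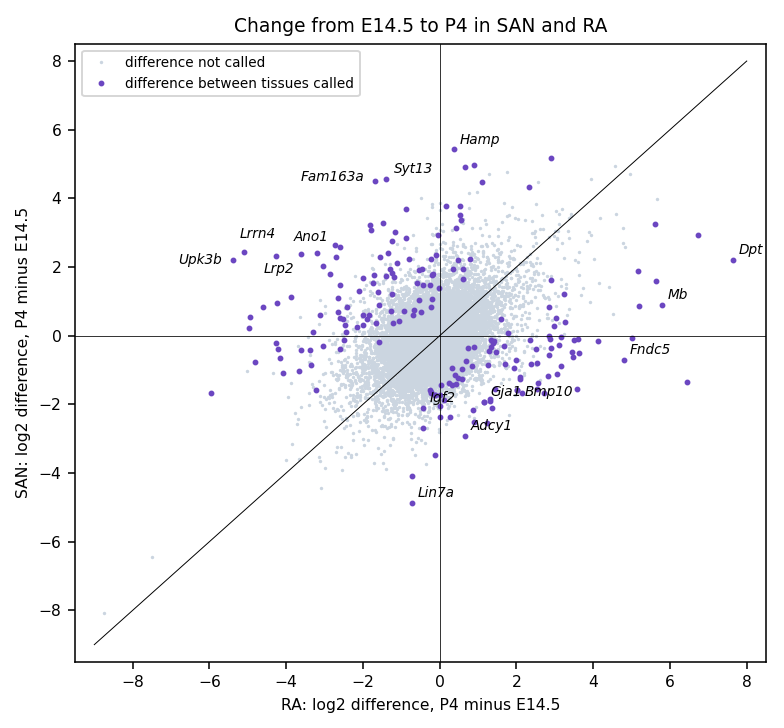
Each point is 1 of 17568 genes, with the log2 difference P4 minus E14.5 in RA on the x axis and in SAN on the y axis, and the line marks equal changes. Purple points are the 202 genes whose difference between tissues passed, with Hamp, Syt13 and Fam163a high on the SAN axis near 0 or below in RA, and Mb, Fndc5 and Dpt far to the right.

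Genes with a more negative change in SAN included some that rose in RA and some that fell in SAN. Gja1 fell in SAN and rose in RA (1.16, adjusted p = 0.033), a difference of -3.10 ± 0.46, adjusted p = 0.0012. Mb, myoglobin, the oxygen store of working muscle, was at 26.4, 0.801 and 1.81 CPM and 11.9, 2.91 and 16.4 CPM in SAN and rose in RA by 5.79 (difference between tissues -4.90 ± 0.97, adjusted p = 0.011). At P14 the SAN libraries held 121, 455 and 159 CPM of it. Fndc5, the precursor of irisin, rose in RA by 4.81 and did not pass in SAN (-5.51 between tissues, adjusted p = 1.7e-05). Igf2 had log2 differences of -2.11 in SAN and -0.42 in RA, where it did not pass (difference -1.68 ± 0.32, adjusted p = 0.0080). Adcy1 and Lin7a fell in SAN and had RA differences of 0.65 and -0.72 (differences between tissues -3.58 and -4.16). Dpt, dermatopontin of the matrix, rose in both, by 2.20 in SAN and 7.64 in RA (difference -5.44, adjusted p = 4.9e-04). Its rise in SAN did not hold throughout, since it did not pass without SAN E14.5 replicate 1 or SAN P4 replicate 2, each left out alone (adjusted p 0.057 to 0.058).

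Few members of the mitosis, glycolysis and matrix lists passed this test. By limma none of the 25 mitosis genes passed it (0 at an adjusted p under 0.05, 1 at an unadjusted p under 0.05), and the RA median of that list was -1.20, with 8 falls. For the 24 collagen and fibrillar matrix genes the RA median was 1.23, with 13 rises, and 1 gene differed between tissues. For the 22 glucose uptake and glycolysis genes the RA median was -0.12, with 2 rises and 6 falls. Of these, Slc2a1 had a more positive change in SAN (1.65) and Ldha a more negative one (-1.47), against 1.15% of all genes that passed. Leaving out 1 library ended the call of Slc2a1 in 6 of 12 fits and that of Ldha in 9. The hypoxia list gave 4 of 19, Epas1 among them. For working atrial genes the RA median was 0.69, and 6 of 13 had a more negative change in SAN, Gja1 and Bmp10 among them. Bmp10, a peptide of atrial muscle, was at 6.87, 0.123 and 5.42 CPM and 0.367, 0.201 and 0.261 CPM in SAN and rose in RA (2.02), a difference of -3.61 ± 0.70, adjusted p = 0.0096. Mesothelial markers Upk3b, Lrrn4 and Msln were among 5 of 12 with a more positive change in SAN, with RA differences of -5.39, -5.10 and -3.20; in SAN E14.5 replicate 1 they were at or near 0. Without that library the differences between tissues were 5.71 (adjusted p = 0.026) for Upk3b, 6.16 (adjusted p = 0.018) for Lrrn4 and 4.29 (adjusted p = 0.11) for Msln. On recovered reads Upk3b and Lrrn4 did not pass with edgeR (adjusted p = 0.19 and 0.12) or DESeq2 (adjusted p = 0.22 and 0.10).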

How the data were processed

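Laser-captured SAN and RA tissue of mouse was profiled by RNA-seq, and 1 table of 20870 genes in 25 libraries was used. Its values are a normalized signal that the authors deposited per gene and library. Per the submitters' processing notes, TopHat2 2.0.6, edgeR and the build mm8 were used; the counting program and its strand setting are not given in the sources used here. The amplification kit named in the labels' protocols does not mark strand, so reads of overlapping, antisense or near-identical genes cannot be told apart, and CPM values are not per length. All deposited values of the 18 libraries of the 3 stages were whole multiples of 1 step per library (tolerance 0.1 reads), which gave recovered reads. CPM here is the deposited signal divided by 24.3374.

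The 17568 genes that reached 1 CPM in 3 or more of the 18 libraries were fitted with limma 3.58.1 in R 4.3.3, with an intensity trend, on log2(CPM + 1) and 6 group means; the contrasts were SAN P4 minus E14.5 and the same change in SAN minus that in RA. Benjamini-Hochberg adjusted p-values under 0.05 were called. The fit was also run on simulated counts with known changes. These held no outlying libraries and no pairing, so dependence on single libraries was not tested by them. Groups came from the labels, and the other 7 libraries, from E12.5, entered no comparison. Replicate numbers did not pair the SAN libraries of E14.5 with those of P4. The labels do not say whether SAN and RA libraries of a stage came from the same hearts. Such pairing was not tested, and the fit treated these libraries as separate. By Xist, same-numbered SAN and RA libraries matched in sex at E14.5 and P14, but not all did at P4. Alternatives were other pseudocounts, filters, scalings and library weights, a replicate block, the 6 SAN libraries alone, edgeR 4.0.16 and DESeq2 1.42.0 on recovered reads, and each library left out.

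The members and gene lists were chosen with earlier results of these data known. Genes were named by these rules: a core set of node and atrial genes, the 12 largest rises and 12 largest falls among called genes whose libraries did not overlap and whose higher mean reached 5 CPM, 6 in each direction for the difference between tissues, and up to 4 of each list by smallest p. Hemoglobins, histocompatibility, immunoglobulin, ribosomal and mitochondrial genes and unnamed models were left out of the rules on largest changes. Genes named outside these rules, among them Pgk1, Ldha, Ube2c, Eln, Hfe2, Th, Tcf21, Pdgfra, the globins and the list members given because they did not pass, were chosen after their values were seen. Promoters are the 250 bases before each RefSeq start (GRCm38.p6), used for their sequence only, since the reads were placed on another build. A few list members are counted but not reported here by name. Counting intervals and limits at a count of 0 cover counting error only.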

Additional observations from a re-analysis of the deposited data

Results flagged for a closer look

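For 107 genes the change from E14.5 to P4 was more positive in SAN than in RA, and for 95 it was more negative, by the limma test of the difference between tissues. The values below are log2 differences, SAN change minus RA change, each over 3 libraries per group. No test for outlying libraries was applied, since each group held 3.

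Among the genes with a more positive change in SAN, the mesothelial markers Upk3b and Lrrn4 had the largest values, 7.59 and 7.54, and Msln was at 5.60. By limma none of these markers passed in SAN itself. In RA, Upk3b was at 98.7, 114 and 162 CPM at E14.5, 0.509, 15.8 and 0 CPM at P4 and 27.3, 2.85 and 39.0 CPM at P14. As given above, Upk3b and Lrrn4 did not pass with edgeR or DESeq2 on recovered reads. Lrp2, an endocytic receptor, was at 6.61, Fam163a at 6.19, Ano1, a calcium-activated chloride channel, at 5.97, Syt13 at 5.96 and Efemp1, a fibulin of the matrix, at 5.17. In SAN itself Lrp2, Ano1 and Efemp1 rose by less, 2.33, 2.37 and 2.58, so their RA changes were below 0. These SAN rises did not pass in 3, 4 and 3 of the 6 fits that left out a SAN library. Hamp was at 5.06. The axonal adhesion genes followed, Cntn2 at 4.26, Nfasc at 4.07 and Lynx1 at 2.28. Iigp1 was at 3.40, Btg2 at 1.71, Slc2a1 at 1.65, Epas1 at 1.61, Ccnd2, a cyclin of G1, at 1.18 and Cd36 at 1.04. Slc2a1 fell in both tissues, by 1.58 in SAN and further in RA (-3.23).

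Among those with a more negative change in SAN, Fndc5 was at -5.51, Dpt at -5.44 and Mb at -4.90. Lin7a was at -4.16, Nts, which encodes neurotensin, at -4.16, Rapsn, which clusters acetylcholine receptors, at -3.95, Doc2g at -3.81 and Nov, a matrix protein of the CCN family, at -3.81. Of the atrial genes, Nppa was at -3.76, Bmp10 at -3.61, Gja1 at -3.10 and Npr3 at -1.99. Adcy1 was at -3.58, Arhgap36 at -3.37, Perp, a desmosome protein and p53 target, at -2.88 and Igf2 at -1.68.

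Leaving out each of the 12 SAN and RA libraries of the 2 stages in turn ended the call for Btg2 in 11 of 12 fits, Cntn2 in 10, Arhgap36 in 10, Npr3 in 9, Msln in 9, Iigp1 in 9, Cd36 in 9, Ccnd2 in 8, Rapsn in 7, Nppa in 7, Nov in 7, Slc2a1 in 6, Nfasc in 5, Upk3b in 2 and Lynx1 in 1. The other genes given here passed in all 12 fits. Of 34 named genes that passed the test of the difference between tissues, 23 did so with edgeR and 29 with DESeq2. Without a filter on low values 25 passed. Over all alternatives, leaving out libraries included, Nfasc passed in 14 of 22 and Hamp in 20 of 22.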

How the results depend on the processing

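Rises from E14.5 to P4 (676 genes) numbered 394 with libraries scaled to the sarcomere genes, 1221 with DESeq2, 255 with the 6 SAN libraries alone, 147 with those 6 and a replicate block, and 395 to 682 with 1 library left out. Falls (772) numbered 2640 with sarcomere scaling, 417 with edgeR, 295 with the 6 SAN libraries alone, 112 with those 6 and a replicate block, and 410 to 997 with 1 library left out. More positive changes in SAN than in RA (107) numbered 69 with edgeR, 245 with DESeq2, 225 with library weights and 59 to 138 with 1 library left out, and more negative ones (95) numbered 158 with DESeq2, 220 with library weights and 59 to 141. Of 166 named genes that passed, 143 to 162 did so under each of the other pseudocounts, filters, scalings, weights and tools, 126 to 149 with 1 library left out, 96 with the 6 SAN libraries alone and 76 with those 6 and the block. Under sarcomere scaling Sdha turned to -0.07, Cyc1 to -0.01, Cox6a2 to -0.02, Rbfox2 to -0.27 and Perp to -0.07. With 1 library left out Foxd3 lay between -0.03 (without SAN P4 replicate 3) and 1.24, Hey2 between -2.05 and 0.12 (without SAN P4 replicate 1) and Myl2 between -3.42 and 0.74 (without SAN E14.5 replicate 1). The cause was not tested. With a replicate block on all 18 libraries 644 genes rose, 685 fell and 162 of the 166 named calls passed; same-numbered SAN libraries of the 2 stages correlated at -0.003, 0.003 and 0.053 in their deviations, so the numbers do not pair them. At 3 reads, or at most 0.301 CPM, differences among the lowest genes were not detectable at this depth.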

Other observations

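A few further genes passed in lists with few calls. Since 3.85% of all genes tested rose and 4.39% fell, single calls in these lists are not read as a result about the lists. H2-D1, a class I histocompatibility heavy chain whose reads can be shared with its close relatives, went from 13.6, 13.4 and 14.14 CPM at E14.5 to 32.0, 46.3 and 55.6 CPM at P4 and 116, 63.6 and 98.7 CPM at P14 (log2 difference 1.60, limma adjusted p = 0.0044 from E14.5 to P4), and was the 1 rise among 12 antigen presentation genes. Ifitm3, an interferon-induced membrane protein that restricts virus entry, went from 14.17, 9.80 and 14.9 CPM to 32.7, 54.1 and 85.4 CPM (1.98, limma adjusted p = 3.2e-04) and was the 1 rise among 14 innate immune genes. Myog, a factor of skeletal muscle differentiation, was at 1.37, 4.87 and 1.71 CPM at E14.5 and 0, 0 and 0 CPM at P4 (-1.75, limma adjusted p = 0.0038). Of 7 skeletal muscle genes it was the 1 fall, and Ckm, muscle creatine kinase, was the 1 rise (34.0, 29.96 and 61.8 CPM against 105, 99.4 and 122 CPM, 1.42, limma adjusted p = 0.022), which did not pass in 3 of the 6 fits that left out a library. Cidea, a lipid droplet protein of brown fat, was at 1.08, 2.84 and 0.502 CPM and 15.6, 8.02 and 7.39 CPM, and its rise (2.24) did not pass in 3 of the 6 fits that left out a library.

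Of 12 tested markers of smooth muscle and pericytes 2 rose, 1 fell and 9 did not pass, where 3.85% and 4.39% of all genes tested rose and fell. The rises were Rgs5, given above, and Myh11, and the fall was Cnn1. Myh11, smooth muscle myosin, went from 2.53, 7.46 and 2.81 CPM to 5.78, 121 and 308 CPM (3.71), with the 3 P4 libraries far from each other, and Cnn1, calponin, from 118, 104 and 118 CPM to 3.49, 21.4 and 53.4 CPM (-2.70). Myh11 lost its call in 3 of the 6 fits that left out a library and Cnn1 in 1.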
